A study of Mus musculus with 18 samples.

Results

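Mouse neonatal ventricular cardiac fibroblasts that carried Foxm1 siRNA and angiotensin II together (labelled si-Foxm1+Ang-II, 3 libraries) were compared with the same kind of cells under angiotensin II without Foxm1 siRNA (labelled Ang-II, 3 libraries). The genes described are those with a mean of at least 1 FPKM (counted fragments divided by gene length and by the library's total) over these 6 libraries, which left 11052 of the 18264 genes listed; Ly75 at 1.002 FPKM was the lowest gene kept and Fam110c at 0.9997 FPKM the highest left out. Of the genes kept, 157 passed only through the si-Foxm1+Ang-II libraries, with a mean under 1 FPKM in Ang-II libraries, and 77 passed only through the Ang-II libraries. RNA sequencing covered 18 libraries in 6 groups of 3: si-Foxm1+Ang-II, Ang-II, si-Foxm1 without angiotensin, si-NC (a control siRNA), OE-Foxm1 (Foxm1 overexpression) and OE-NC (its control). All were described as neonatal ventricular cardiac fibroblasts. The labels used here give no dose, time, strain or siRNA sequence, and do not say whether the Ang-II cells also received a control siRNA. They do not say either that libraries of a group came from separate cultures, so the p-values measure the spread between these libraries, which may be technical.

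Foxm1 is a forkhead transcription factor that is made in proliferating cells and is known for driving genes of the G2 phase and mitosis, together with B-Myb and the MuvB complex. Angiotensin II acts through a Gq-coupled receptor and is widely used to push cardiac fibroblasts towards the matrix-secreting, contractile myofibroblast state. The study's design text names Foxm1 in cardiac fibroblasts and pressure-overload remodelling of the heart as its subject.

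Counted fragments ran from 18047190 to 19343343 in the 6 libraries. The first principal component separated the groups and held 83.6% of the variance. The second, with 7.03%, set Ang-II replicate 3 apart from Ang-II replicates 1 and 2. Over genes averaging more than 20 counts, the mean chi-square between libraries of a group was 1.92 to 2.07 in si-Foxm1+Ang-II and 1.76 between Ang-II replicates 1 and 2, but 5.03 and 5.46 for Ang-II replicate 3 against them. Where a call was lost, or a called value moved by over 1.5 times, without this library, that is given beside the result. Fibroblast markers were present in all 6 libraries, with decorin (Dcn) at 79.7 to 85.0 FPKM in si-Foxm1+Ang-II and 79.8 to 109 FPKM in Ang-II. Cardiac muscle transcripts were abundant in both groups, so the libraries were not those of a pure fibroblast population.

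Foxm1 itself had 3.55, 3.36 and 3.03 FPKM in si-Foxm1+Ang-II libraries, against 4.23, 4.04 and 5.65 FPKM in Ang-II libraries. The groups did not overlap, and Ang-II replicate 3 was the highest of the 6. Its mean was 28.5% lower with the siRNA (log2 fold change -0.38 ± 0.10 SE, limma adjusted p = 0.00447). Without Ang-II replicate 3 the log2 fold change was -0.25 ± 0.08 (limma adjusted p = 0.0156), and the two-sided exact permutation test gave p = 0.1, the smallest that 3 against 3 libraries allow. Without angiotensin, Foxm1 had 6.07, 5.13 and 6.71 FPKM in si-Foxm1 and 10.4, 9.64 and 10.3 FPKM in si-NC; this siRNA effect and that under angiotensin were 0.30 ± 0.14 apart on the log2 scale, which did not pass the test (limma adjusted p = 0.345). Usp10, a deubiquitinase gene, was higher with the siRNA at 13.9, 13.7 and 12.3 FPKM in si-Foxm1+Ang-II, against 10.3, 10.5 and 10.4 FPKM in Ang-II (log2 fold change 0.32 ± 0.04, limma adjusted p = 2.48e-05). Mapk12, which encodes the p38 gamma kinase, had 8.80, 8.48 and 9.07 FPKM in si-Foxm1+Ang-II and 8.12, 7.86 and 8.54 FPKM in Ang-II and did not pass (0.09 ± 0.05, limma adjusted p = 0.127; -0.01 under quantile normalization).

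Foxm1 siRNA under angiotensin moved many genes by small amounts and 101 genes by 2-fold or more on the log2(FPKM + 1) scale. That count depends on the added 1, which shrinks changes of low genes: it was 204 with 0.1 added instead. Of the 11052 genes, 6800 (61.5%) passed an adjusted p of 0.05 by limma on log2(FPKM + 1), of which 4878 (44.1%) rose and 1922 (17.4%) fell. The split depends on the scaling: with libraries rescaled to each other by the median of their gene ratios (median-ratio scaling), the share called was 55.6%, with 3045 genes up (27.6%) and 3100 down (28.0%), and with quantile normalization it was 56.1%, with 3324 up (30.1%) and 2878 down (26.0%). Of the genes called, 67.5% changed by less than 1.25-fold and 91.6% by less than 1.5-fold. The median log2 fold change of all genes was 0.09, and list medians below are given relative to it. At 2-fold or more, 48 genes (0.434%) rose and 53 (0.48%) fell, and all 101 (0.914%) kept their direction and call without Ang-II replicate 3 and under both other scalings. In all 101 the groups did not overlap, which was also the case for 64.7% of all genes tested, so a lack of overlap noted for single genes below was common in these libraries. List counts are to be read against the shares of all genes called, 44.1% higher and 17.4% lower, or 27.6% and 28.0% under median-ratio scaling. Of the 48 that rose, 14 had a mean under 1 FPKM in Ang-II libraries, and of the 53 that fell, 5 had a mean under 1 FPKM in si-Foxm1+Ang-II libraries, so their passing the filter rests on the group where they were high.

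**Figure D1:**
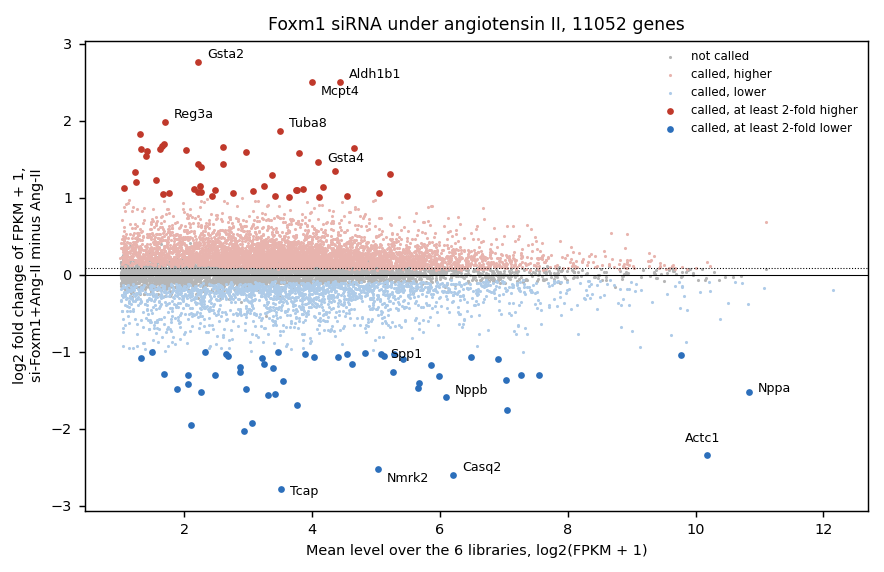
Log2 fold change of si-Foxm1+Ang-II over Ang-II (vertical axis) against the mean level as log2(FPKM + 1) over the 6 libraries for the 11052 genes, with genes called higher in red, called lower in blue (darker at 2-fold or more), not called in grey, and the median of all genes as a dotted line. Most called genes lie within 1.5-fold, while Gsta2, Aldh1b1 and Mcpt4 stand at the top and Tcap, Casq2, Nmrk2 and Actc1 at the bottom.

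The genes that rose most came from no single list: 2 of the 48 genes that rose 2-fold or more were in any list described here. Aldh1b1, a mitochondrial aldehyde dehydrogenase, had 35.9, 35.5 and 35.8 FPKM in si-Foxm1+Ang-II libraries, against 5.59, 5.15 and 5.67 FPKM in Ang-II libraries (log2 fold change 2.51 ± 0.06, limma adjusted p = 1.92e-12). Mcpt4, a chymase best known from connective tissue mast cells, had 26.5, 26.1 and 25.9 FPKM in si-Foxm1+Ang-II, against 3.74, 3.38 and 4.34 FPKM in Ang-II (2.50 ± 0.07, limma adjusted p = 5.75e-12). Libraries of a group lay close together in both genes, and the groups were far apart. Tuba8, an alpha-tubulin isotype, had 16.4, 16.9 and 17.1 FPKM in si-Foxm1+Ang-II, against 3.93, 3.75 and 3.87 FPKM in Ang-II (log2 fold change 1.88). Fndc5, the precursor of the secreted peptide irisin, had 7.24, 8.82 and 8.67 FPKM in si-Foxm1+Ang-II, against 2.26, 1.64 and 1.85 FPKM in Ang-II (1.67). The 15 highest also held the riboflavin transporter gene Slc52a3 (log2 fold change 1.83), the water channel gene Aqp8 (1.67), Doc2g (1.64), Rasl10a (1.64), Tmem116 (1.62) and Gm36028 (1.61). Gsta2, an alpha-class glutathione S-transferase, had 115, 131 and 136 counts in si-Foxm1+Ang-II, against 5, 2 and 3 counts in Ang-II (log2 fold change of log2(FPKM + 1) 2.76). Gsta2 and its close copy Gsta1 (1.64), the lectin gene Reg3a (1.99) and the interferon-inducible GTPase gene Gbp6 (1.70) belong to families of similar genes. Some of these are near-identical copies, and how the authors' counting split such reads is uncertain. Gsta2, Gsta1, Reg3a, Gbp6, Slc52a3, Aqp8, Rasl10a, Tmem116 and Gm36028 had means under 1 FPKM in Ang-II libraries. Their passing the filter rests on the libraries where they were high.

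The genes that fell most included many of heart muscle: of the 53 genes that fell 2-fold or more, 8 were in the cardiomyocyte list and 4 in the macrophage list. Actc1, cardiac alpha-actin, had 374, 393 and 378 FPKM in si-Foxm1+Ang-II libraries, against 1894, 1986 and 1907 FPKM in Ang-II libraries (log2 fold change -2.33 ± 0.05, limma adjusted p = 2.28e-12). Casq2, the calcium store protein cardiac calsequestrin, had 18.8, 21.7 and 19.2 FPKM in si-Foxm1+Ang-II, against 130, 130 and 115 FPKM in Ang-II (-2.60 ± 0.07, limma adjusted p = 5.57e-12). The titin cap gene Tcap fell most (log2 fold change -2.78), and the beta-myosin heavy chain gene Myh7 fell by 1.92 on the log2 scale. Nmrk2, a muscle-enriched nicotinamide riboside kinase, had 8.71, 9.14 and 8.10 FPKM in si-Foxm1+Ang-II, against 52.1, 59.0 and 52.2 FPKM in Ang-II (-2.52). In each of these genes the siRNA libraries were several-fold below every Ang-II library. Also among the 15 lowest were Casq1 (log2 fold change -2.03), the water channel gene Aqp4 (-1.95), Sh3bgr (-1.76), the Iroquois factor gene Irx3 (-1.69), the natriuretic peptide genes Nppb (-1.59) and Nppa (-1.53), the monoacylglycerol lipase gene Mgll (-1.57), the muscarinic receptor gene Chrm2 (-1.55) and Tmtc1 (-1.49). Sprr2a3 (-1.52) is one of several near-identical small proline-rich protein genes, and its reads may be split among copies. Aqp4 and Tmtc1 had means under 1 FPKM in si-Foxm1+Ang-II libraries, so their passing the filter rests on the Ang-II libraries.

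By amount of transcript, the ferritin genes moved in opposite directions. The light chain gene Ftl1 had 2855, 2721 and 2519 FPKM in si-Foxm1+Ang-II, against 1645, 1653 and 1731 FPKM in Ang-II, the highest gain in FPKM of any called gene (log2 fold change 0.69). The heavy chain gene Fth1 had 584, 555 and 598 FPKM in si-Foxm1+Ang-II, against 981, 984 and 1011 FPKM in Ang-II (-0.78). Both have processed pseudogenes in the genome, so some of their reads may have been counted elsewhere. The other large losses in FPKM were again mostly muscle genes, with Actc1, Nppa and the alpha-myosin gene Myh6 at the head, and the other large gains included Thbs1 (0.53), the adenine nucleotide carrier gene Slc25a5 (0.54) and the elongation factor gene Eef2 (0.17).

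Genes of mitosis, the class that Foxm1 is known to drive, rose while Foxm1 was lower. Of 34 FOXM1 and B-MYB mitotic targets tested, 31 rose (background 44.1%), 0 fell, and Cenpf, Cdc25b and Nek2 did not pass. The list median was 0.48 above that of all genes on the log2 scale, and 28 rose and 0 fell under both other scalings. Top2a, the DNA topoisomerase that untangles chromosomes before division, had 19.5, 18.4 and 18.7 FPKM in si-Foxm1+Ang-II libraries, against 8.95, 8.14 and 11.2 FPKM in Ang-II libraries (log2 fold change 0.94 ± 0.08, limma adjusted p = 5.35e-07). Prc1, which bundles microtubules of the central spindle, had 14.3, 12.9 and 13.3 FPKM in si-Foxm1+Ang-II, against 6.91, 5.58 and 7.98 FPKM in Ang-II (0.90). Both genes were highest in Ang-II replicate 3 among the Ang-II libraries and still did not overlap between the groups. The chromosome passenger kinase gene Aurkb (0.80), the spindle motor gene Kif11 (0.79) and Mki67 (0.63), the proliferation marker, also rose. Cenpf, a kinetochore gene, had 1.11, 1.08 and 1.10 FPKM in si-Foxm1+Ang-II and 1.04, 0.898 and 1.28 FPKM in Ang-II (0.02; chosen after its values were seen, as was Mki67). Summed over the list, the level was 268 to 283 FPKM in si-Foxm1+Ang-II and 151 to 192 FPKM in Ang-II, and without Ang-II replicate 3 again 31 rose and 0 fell. In bulk RNA, fewer cells of a type and less RNA per cell cannot be told apart, which holds for these and all following lists.

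The Ang-II libraries were themselves low in this list. In Ang-II against si-NC, which shares the Ang-II libraries with the siRNA comparison and is given only as values beside it, 34 of the 34 genes were lower (background 28.5%). Top2a, for example, had 31.7, 32.7 and 36.7 FPKM in si-Foxm1 and 24.6, 22.2 and 23.2 FPKM in si-NC, so that the 3 si-Foxm1+Ang-II libraries lay above Ang-II and below both unstimulated groups.

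Promoter sequence sets the mitotic genes apart from the S phase genes by the words they hold, and the windows below show those words in genes that rose. Promoters of 300 bases (250 before to 50 after the start, RefSeq, GRCm38.p6, not the authors' mm39 build) were found for 8885 of the 11052 genes. The cell cycle homology region, read as TTTGAA, was present on either strand in 18 of the 28 mitotic promoters found (64.3%), in 4 of 30 S phase promoters (13.3%) and in 13.9% of all. Over all genes, those with and without it had median log2 fold changes of 0.11 and 0.09. Within the mitotic list these medians were 0.64 and 0.58, and Cenpf, which did not pass, held it too. CCAAT was present in 82.1% of mitotic, 56.7% of S phase and 43.0% of all promoters. The forkhead word GTAAACA was present in 1 of 28 mitotic promoters (3.57%), 2 of 30 S phase promoters (6.67%) and 3.02% of all. Each word was sought on both strands, and none of the words contains another. Capitals below mark TTTGAA, or TTCAAA where it was read from the opposite strand, and the sequences run 5′ to 3′ along the gene. Genes shown here and in the S phase windows were chosen after their values were seen, and a match is only a description of these letters.
Cdk1, chr10:69352910-69352939, minus strand, motif 15 bases before the start: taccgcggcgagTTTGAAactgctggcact
Cdc20, chr4:118437344-118437373, minus strand, 18 bases before: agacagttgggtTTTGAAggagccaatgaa
Kif11, chr19:37376351-37376380, plus strand, 19 bases before: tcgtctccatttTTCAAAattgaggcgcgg
Top2a, chr11:99024195-99024224, minus strand, 23 bases before: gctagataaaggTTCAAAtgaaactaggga
Ube2c, chr2:164769888-164769917, plus strand, 29 bases before: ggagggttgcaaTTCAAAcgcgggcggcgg
Prc1, chr7:80294434-80294463, plus strand, 5 bases before: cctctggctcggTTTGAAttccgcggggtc
These genes are the mitotic kinase gene Cdk1 (log2 fold change 0.66), the anaphase-promoting complex activator gene Cdc20 (0.50), the kinesin gene Kif11 (0.79), Top2a (0.94), the ubiquitin-conjugating enzyme gene Ube2c (0.68) and Prc1 (0.90).

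DNA replication genes rose as well. Of 39 DNA replication and S phase genes tested, 38 rose and 0 fell, with a list median 0.44 above that of all genes; Rrm1 did not pass, and 34 rose and 0 fell under both other scalings. Mcm3, a subunit of the replicative helicase, had 16.4, 15.5 and 15.8 FPKM in si-Foxm1+Ang-II libraries, against 8.79, 8.55 and 11.01 FPKM in Ang-II libraries (log2 fold change 0.70 ± 0.07, limma adjusted p = 2.18e-06). Mcm5 of the same helicase (0.76), the flap endonuclease gene Fen1 (0.76) and the cyclin gene Ccne1 (0.72) were among those that rose most. Without Ang-II replicate 3, 37 of the 39 rose. In Ang-II against si-NC, 39 of the 39 were lower.
An E2F word, TTTCCCGC or TTTGGCGC on either strand, was present in 10 of the 30 S phase promoters found (33.3%), 3.57% of mitotic and 3.58% of all promoters. Capitals mark it in the windows below (GCGCCAAA and GCGGGAAA are the opposite-strand readings).
Mcm6, chr1:128359734-128359763, minus strand, 47 bases before the start: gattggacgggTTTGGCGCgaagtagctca
Mcm5, chr8:75109349-75109378, plus strand, 149 bases before: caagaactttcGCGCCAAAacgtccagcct
Mcm7, chr5:138172030-138172059, minus strand, 165 bases before: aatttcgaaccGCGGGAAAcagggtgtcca
Pola1, chrX:93632275-93632304, minus strand, 138 bases before: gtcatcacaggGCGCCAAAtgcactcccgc
These encode helicase subunits (Mcm6, log2 fold change 0.66; Mcm5, 0.76; Mcm7, 0.68) and a DNA polymerase alpha subunit (Pola1, 0.57).

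Regulators upstream of these genes moved less evenly. Of 25 cyclin D, CDK inhibitor and pocket protein genes, 14 rose and 3 fell, against 8 and 5 under median-ratio scaling and 8 and 6 under quantile normalization. Mybl2, which encodes B-Myb, had 2.53, 2.27 and 2.23 FPKM in si-Foxm1+Ang-II, against 1.12, 0.970 and 1.57 FPKM in Ang-II (log2 fold change 0.60). The CDK inhibitor gene Cdkn1a (p21) had 70.0, 77.1 and 66.4 FPKM in si-Foxm1+Ang-II, against 91.3, 109 and 95.5 FPKM in Ang-II (-0.46), and Cdkn2d fell by 0.50 on the log2 scale. Among p53 targets, 4 of 28 rose and 11 fell (median 0.19 below that of all genes; 3 and 16 under median-ratio scaling). Ei24 (-0.60) fell most, and Plk2, a polo-like kinase gene, rose (0.80).

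**Figure D2:**
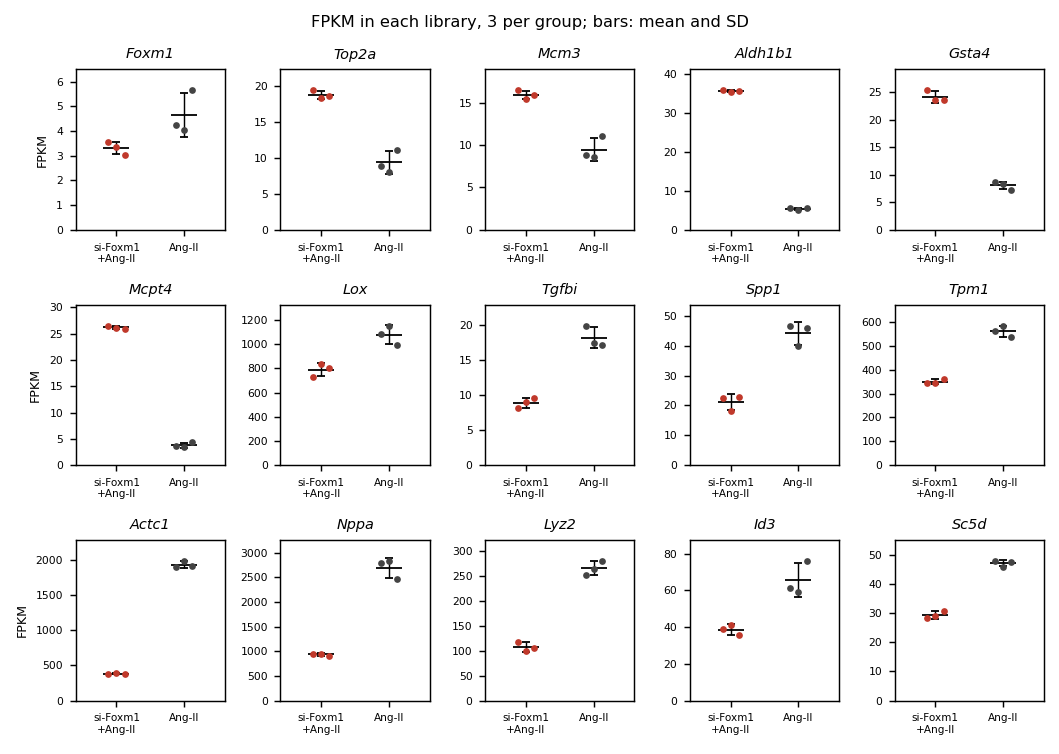
FPKM in each of the 3 si-Foxm1+Ang-II and 3 Ang-II libraries, with bars for the mean and SD of each group, for Foxm1 and 14 genes named in the text. The points of the groups do not overlap in any panel shown, and Ang-II replicate 3 is the highest Ang-II library for Foxm1, Top2a and Mcm3.

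More collagen genes fell than rose. Of 19 collagen genes, 1 rose and 11 fell, with a median 0.22 below that of all genes; the counts were 0 and 14 under median-ratio scaling, 1 and 9 under quantile normalization, and 1 and 12 without Ang-II replicate 3. Col6a2, a chain of beaded-filament collagen VI, had 20.7, 20.2 and 20.4 FPKM in si-Foxm1+Ang-II libraries, against 27.2, 26.6 and 30.9 FPKM in Ang-II libraries (log2 fold change -0.45). Col12a1, a fibril-associated collagen, had 83.7, 92.3 and 89.5 FPKM in si-Foxm1+Ang-II, against 114, 120 and 105 FPKM in Ang-II (-0.35). Both genes fell without overlap. Col5a2, a collagen V chain, had 669, 695 and 701 FPKM in si-Foxm1+Ang-II, against 807, 848 and 795 FPKM in Ang-II, and fell (-0.25 ± 0.03, limma adjusted p = 1.33e-05; -0.35 under median-ratio scaling). The main fibril genes Col1a1, Col1a2 and Col3a1 were picked after their values were seen. Col1a1 had 1278, 1317 and 1282 FPKM in si-Foxm1+Ang-II and 1394, 1358 and 1314 FPKM in Ang-II and did not pass (-0.07 ± 0.03, limma adjusted p = 0.0841; -0.17 under median-ratio scaling, where it passed, 0.16 under quantile normalization, and -0.09 without Ang-II replicate 3, where it passed). Col1a2 had 1132, 1119 and 1169 FPKM in si-Foxm1+Ang-II, against 1231, 1194 and 1219 FPKM in Ang-II (-0.09; 0.02 under quantile normalization, where it did not pass). Col3a1 had 403, 376 and 417 FPKM in si-Foxm1+Ang-II and 408, 387 and 559 FPKM in Ang-II, did not pass (-0.16), and was at 0.00 without Ang-II replicate 3.

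Other matrix proteins went both ways. Of 28 elastic fibre, glycoprotein and proteoglycan genes, 4 rose and 16 fell (3 and 19 under median-ratio scaling, 6 and 14 under quantile normalization, 7 and 15 without Ang-II replicate 3), with a median 0.22 below that of all genes. Spp1, osteopontin, had 22.5, 18.2 and 22.7 FPKM in si-Foxm1+Ang-II, against 46.8, 39.8 and 45.9 FPKM in Ang-II (log2 fold change -1.03 ± 0.11, limma adjusted p = 3.18e-06). Tgfbi, a TGF-beta-induced adhesion protein gene, had 8.13, 9.09 and 9.53 FPKM in si-Foxm1+Ang-II, against 19.9, 17.5 and 17.2 FPKM in Ang-II (-0.95 ± 0.07, limma adjusted p = 6.48e-08). The proteoglycan genes Vcan (-0.65) and Ogn (-0.65) and the microfibril gene Mfap5 (-0.55) fell too. Thbs1, thrombospondin, went the other way with 560, 572 and 587 FPKM in si-Foxm1+Ang-II, against 433, 415 and 350 FPKM in Ang-II (0.53), as did Emilin1 (0.47). Fn1, fibronectin, had 1598, 1666 and 1646 FPKM in si-Foxm1+Ang-II, against 1748, 1808 and 1729 FPKM in Ang-II (-0.11, but 0.14 under quantile normalization). Postn, periostin, had 1075, 1020 and 1091 FPKM in si-Foxm1+Ang-II, against 1012, 983 and 1008 FPKM in Ang-II (0.09, but -0.02 under median-ratio scaling). Fn1 and Postn were chosen after their values were seen.

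Enzymes that finish collagen fibrils were lower in part. Of 20 collagen processing and cross-linking genes, 4 rose and 10 fell (3 and 13 under median-ratio scaling, 4 and 9 under quantile normalization). Lox, the lysyl oxidase that cross-links collagen and elastin, had 730, 834 and 801 FPKM in si-Foxm1+Ang-II libraries, against 1084, 1154 and 995 FPKM in Ang-II libraries (log2 fold change -0.45 ± 0.06, limma adjusted p = 1.4e-05). Its relative Loxl2 fell (-0.37), while Loxl3, a low-abundance member, rose (0.28). Among 19 matrix proteases and inhibitors, 3 rose and 5 fell, but 6 and 6 without Ang-II replicate 3 and 2 and 9 under median-ratio scaling; Timp3 (-0.42) and the aggrecanase gene Adamts5 (-0.49, and -0.34 without that library) fell and the gelatinase gene Mmp2 rose (0.22).

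Contractile genes of the myofibroblast state were lower in part. Of 28 tested, 5 rose and 12 fell, with a median 0.17 below that of all genes (3 and 19 under median-ratio scaling, 3 and 13 under quantile normalization). Tpm1, a tropomyosin of actin filaments, had 345, 344 and 362 FPKM in si-Foxm1+Ang-II libraries, against 561, 585 and 537 FPKM in Ang-II libraries (log2 fold change -0.68 ± 0.04, limma adjusted p = 3.47e-09). Acta2, smooth muscle alpha-actin and the usual myofibroblast marker, had 775, 852 and 826 FPKM in si-Foxm1+Ang-II, against 974, 1023 and 973 FPKM in Ang-II (-0.28 ± 0.06, limma adjusted p = 0.00187; chosen after its values were seen). The regulatory light chain gene Myl9 (-0.40) and Fhl2 (-0.45), a LIM-only cofactor, also fell. Acta1, the skeletal alpha-actin, rose at a low level, with 3.23, 3.19 and 3.25 FPKM in si-Foxm1+Ang-II, against 1.753, 1.71 and 1.82 FPKM in Ang-II (0.61). Tpm1 and several others of this list are also made by heart muscle, whose markers fell in the same libraries (below), and the part of that fall in these values was not tested.

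**Figure D3:**
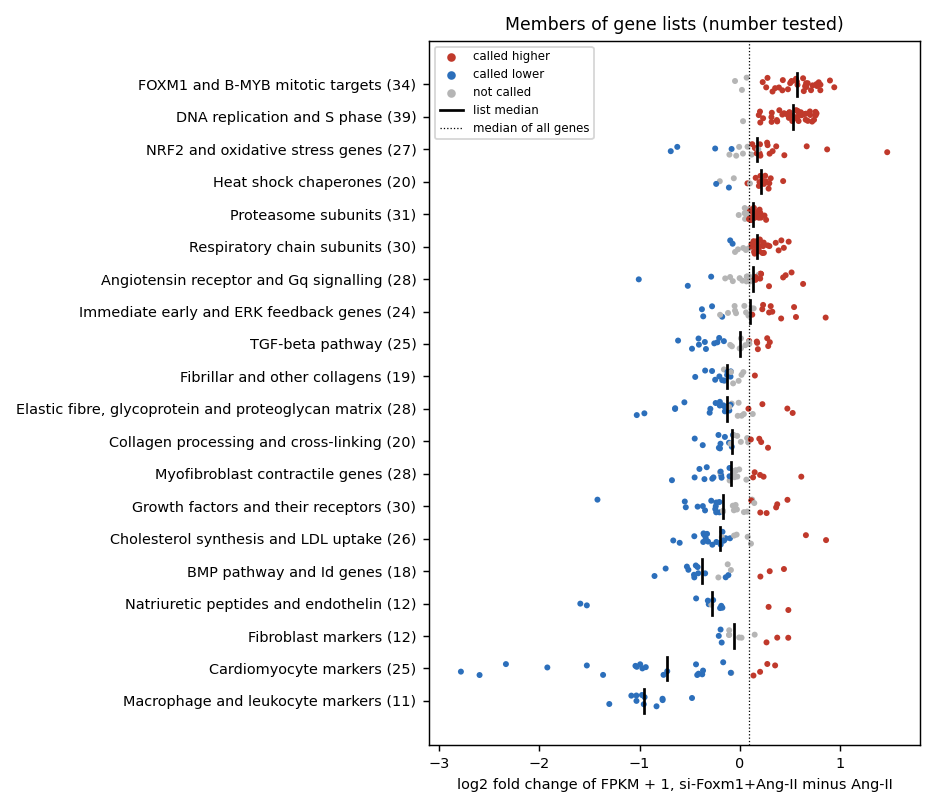
Log2 fold change of si-Foxm1+Ang-II over Ang-II for every tested member of each gene list shown, 1 row per list, with red for called higher, blue for called lower, grey for not called, a black bar at the list median and a dotted line at the median of all genes. The mitotic and S phase lists lie right of the line and the cardiomyocyte and macrophage lists left of it.

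Signalling genes of the TGF-beta and BMP pathways went both ways, with more that fell. Of 25 TGF-beta pathway genes, 7 rose and 10 fell (3 and 11 under median-ratio scaling, 5 and 11 under quantile normalization). The ligand gene Tgfb2 had 14.8, 15.4 and 14.9 FPKM in si-Foxm1+Ang-II, against 19.5, 21.6 and 23.1 FPKM in Ang-II (log2 fold change -0.48). The type II receptor gene Tgfbr2 had 11.2, 11.3 and 11.2 FPKM in si-Foxm1+Ang-II, against 14.7, 13.7 and 17.9 FPKM in Ang-II (-0.41), while the type I receptor gene Tgfbr1 rose (0.27). The inhibitory SMAD genes Smad6 (-0.62) and Smad7 (-0.41) fell. In the BMP list, 3 of 18 genes rose and 12 fell, with a median 0.47 below that of all genes (2 and 15 under median-ratio scaling, 3 and 15 under quantile normalization). Its type I receptor genes Acvr1 (-0.85) and Bmpr1a (-0.44) fell. So did the 4 Id genes, BMP targets that block basic helix-loop-helix factors: Id3 had 39.0, 41.4 and 35.6 FPKM in si-Foxm1+Ang-II, against 61.6, 59.1 and 76.1 FPKM in Ang-II (-0.74), and Id4, Id2 and Id1 fell by 0.53, 0.51 and 0.42 on the log2 scale. The transducer gene Smad1 (0.30) and the pseudoreceptor gene Bambi (0.44) rose.

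The Hippo-YAP, Wnt, integrin and growth factor lists went both ways, with larger shares lower than the 17.4% of all genes. Their medians relative to that of all genes were -0.08 (Hippo-YAP), -0.09 (Wnt), -0.16 (integrins) and -0.26 (growth factors). In the Hippo-YAP list, 7 of 25 genes rose and 9 fell (4 and 11 under median-ratio scaling); Yap1, the coactivator, rose (log2 fold change 0.34), and Ankrd1, a YAP target that is also abundant in heart muscle, had 630, 657 and 659 FPKM in si-Foxm1+Ang-II, against 1169, 1231 and 1162 FPKM in Ang-II (-0.87). In the Wnt list, 5 of 21 rose and 8 fell, but 7 and 5 without Ang-II replicate 3. Ctnna1, alpha-catenin of cell junctions, had 87.4, 87.7 and 89.5 FPKM in si-Foxm1+Ang-II, against 218, 218 and 220 FPKM in Ang-II (-1.30 ± 0.03, limma adjusted p = 1.92e-12). Without angiotensin it had 100, 94.3 and 101 FPKM in si-Foxm1, against 245, 247 and 256 FPKM in si-NC. Wif1, a Wnt antagonist, fell, with 0.692, 0.865 and 1.06 FPKM in si-Foxm1+Ang-II, against 2.69, 2.84 and 2.68 FPKM in Ang-II, and Sfrp1, another antagonist, rose (0.65). Of 26 integrin and focal adhesion genes, 7 rose and 9 fell (6 and 16 under median-ratio scaling), with the laminin receptor chain genes Itga6 (0.76) and Itga7 (-0.70) moving apart. Of 30 growth factor and receptor genes, 6 rose and 13 fell (4 and 17 under median-ratio scaling); Fgf18 had 1.37, 0.976 and 1.47 FPKM in si-Foxm1+Ang-II, against 4.52, 5.04 and 5.66 FPKM in Ang-II (-1.42).

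In the angiotensin and Gq list, 14 of 28 genes rose and 3 fell, beside 44.1% and 17.4% of all genes, but 9 and 7 under median-ratio scaling and 9 and 6 under quantile normalization. The receptor genes Agtr1a, Agtr1b and Agtr2 were below the filter. Rcan1, an inhibitor and target of calcineurin, had 17.5, 19.2 and 16.7 FPKM in si-Foxm1+Ang-II, against 38.4, 38.7 and 33.7 FPKM in Ang-II (log2 fold change -1.01 ± 0.06, limma adjusted p = 1.46e-08), and Rcan2 fell (-0.52). The G protein gene Gna12 rose without overlap, with 57.5, 58.6 and 56.4 FPKM in si-Foxm1+Ang-II, against 39.2, 42.0 and 38.6 FPKM in Ang-II (0.52), and the precursor gene Agt rose at a low level (0.63). In the p38 cascade, 7 of 19 rose and 7 fell (6 and 8 under both other scalings): the upstream kinase gene Map3k5 rose (0.57) and the target factor gene Mef2a fell (-0.35).

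The counts of immediate early and inflammatory genes depended on the scaling. Of 24 immediate early and ERK feedback genes, 10 rose and 4 fell, but 8 rose and 9 fell under median-ratio scaling. Fosl1, an AP-1 subunit, had 3.82, 4.27 and 4.16 FPKM in si-Foxm1+Ang-II, against 1.49, 1.96 and 2.002 FPKM in Ang-II (log2 fold change 0.85), and Egr1 rose (0.56). Of 18 chemokine, cytokine and NF-kB genes, 6 rose and 1 fell, but 2 rose and 3 fell under median-ratio scaling, and 6 rose and 3 fell without Ang-II replicate 3. Ptgs2, the inducible prostaglandin synthase, had 7.78, 8.11 and 7.63 FPKM in si-Foxm1+Ang-II, against 5.38, 5.12 and 2.91 FPKM in Ang-II (0.73, and 0.50 without Ang-II replicate 3), and Icam1 fell (-0.38). Of 16 interferon-stimulated genes, 5 rose and 2 fell, against 3 and 3 under median-ratio scaling; Ifit3 fell (-0.57, and -0.34 without Ang-II replicate 3).

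Cholesterol genes fell together. Of 26 cholesterol synthesis and LDL uptake genes, 2 rose and 19 fell, with a median 0.28 below that of all genes (2 and 21 under median-ratio scaling, 2 and 20 under quantile normalization). Sc5d, a late-step desaturase, had 28.3, 28.9 and 30.7 FPKM in si-Foxm1+Ang-II libraries, against 47.8, 45.8 and 47.6 FPKM in Ang-II libraries (log2 fold change -0.67 ± 0.04, limma adjusted p = 6.6e-09). The sterol transfer gene Stard4 (-0.60) and the mevalonate pathway gene Mvd (-0.46) fell, without overlap in Sc5d or Stard4. The exceptions were Hsd17b7, also of the late steps (0.66), and the sterol exporter gene Abcg1, with 3.43, 2.16 and 2.43 FPKM in si-Foxm1+Ang-II, against 1.04, 0.943 and 1.03 FPKM in Ang-II (0.86). Of 25 fatty acid genes, 10 rose and 8 fell, but 8 and 14 under median-ratio scaling. The beta-oxidation gene Hadhb had 62.0, 62.8 and 59.9 FPKM in si-Foxm1+Ang-II, against 35.6, 35.4 and 33.7 FPKM in Ang-II (0.80), and the fatty acid uptake gene Cd36 rose (0.73). The lipoprotein lipase gene Lpl (-0.64) and the synthesis genes Fasn (-0.54) and Scd1 (-0.46) fell.

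Most respiratory chain genes rose, while glycolysis genes went both ways. Of 30 respiratory chain genes, 23 rose and 2 fell (15 and 4 under median-ratio scaling, 22 and 1 under quantile normalization). Uqcrc2, a core protein of complex III, had 207, 211 and 210 FPKM in si-Foxm1+Ang-II, against 150, 154 and 143 FPKM in Ang-II (log2 fold change 0.49). Of 23 glycolysis and hypoxia genes, 11 rose and 10 fell, but 5 and 10 under median-ratio scaling; Pgam1 had 162, 164 and 154 FPKM in si-Foxm1+Ang-II, against 105, 101 and 103 FPKM in Ang-II (0.63), and Pkm fell (-0.29).

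Among stress genes, several glutathione S-transferase genes rose, while the superoxide dismutase gene Sod1 and the catalase gene Cat fell. Of 27 NRF2 and oxidative stress genes, 16 rose and 4 fell (11 and 6 under median-ratio scaling, 13 and 5 under quantile normalization). Gsta4, which clears lipid aldehydes, had 25.3, 23.5 and 23.5 FPKM in si-Foxm1+Ang-II libraries, against 8.62, 8.30 and 7.30 FPKM in Ang-II libraries (log2 fold change 1.47 ± 0.05, limma adjusted p = 1.28e-10). Gstm1 rose (0.87), though it has close copies, and so did the sulfiredoxin gene Srxn1 (0.67). Sod1, the cytosolic superoxide dismutase, had 126, 116 and 124 FPKM in si-Foxm1+Ang-II, against 200, 193 and 198 FPKM in Ang-II (-0.69), and the catalase gene Cat had 25.7, 26.2 and 25.7 FPKM in si-Foxm1+Ang-II, against 40.02, 39.8 and 41.6 FPKM in Ang-II (-0.62). These groups did not overlap in either direction. Of 20 heat shock chaperone genes, 15 rose and 2 fell (13 and 3 under median-ratio scaling), with the co-chaperone gene Bag3 at 73.5, 71.6 and 71.2 FPKM in si-Foxm1+Ang-II, against 55.6, 53.8 and 50.4 FPKM in Ang-II (0.43).

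Protein turnover lists depended on the scaling. Of 31 proteasome subunit genes, 23 rose and 0 fell, against 7 and 1 under median-ratio scaling. Of 36 ribosomal protein genes, 16 rose and 0 fell, but the counts were 2 and 7 under median-ratio scaling and 26 and 0 under quantile normalization, and many have processed pseudogenes. Of 24 unfolded protein response genes, 4 rose and 10 fell (1 and 14 under median-ratio scaling, 0 and 12 under quantile normalization), with the disulfide isomerase gene Pdia6 at 118, 113 and 119 FPKM in si-Foxm1+Ang-II, against 154, 147 and 152 FPKM in Ang-II (log2 fold change -0.37). Among 26 genes of the integrated stress response, 9 were called higher and 6 lower, but 5 and 9 under median-ratio scaling.

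Markers of heart muscle cells fell together. Of 25 cardiomyocyte markers, 4 rose and 20 fell, with a median 0.81 below that of all genes (2 and 21 under median-ratio scaling, 3 and 20 under quantile normalization). Summed over the list, the level was 8341 to 8649 FPKM in si-Foxm1+Ang-II libraries and 13920 to 15130 FPKM in Ang-II libraries. Nppa, atrial natriuretic peptide, had 951, 954 and 900 FPKM in si-Foxm1+Ang-II, against 2799, 2836 and 2468 FPKM in Ang-II (log2 fold change -1.53 ± 0.05, limma adjusted p = 5.69e-11). Myh6, alpha-myosin heavy chain, had 561, 579 and 569 FPKM in si-Foxm1+Ang-II, against 1172, 1237 and 1118 FPKM in Ang-II (-1.04). The fall was uneven: Tnnt2, cardiac troponin T, fell by 0.38 on the log2 scale, and 4 muscle genes rose, among them phospholamban (Pln), with 520, 539 and 547 FPKM in si-Foxm1+Ang-II, against 415, 426 and 419 FPKM in Ang-II (0.35), and troponin I (Tnni3, 0.27). Of 12 natriuretic peptide and endothelin genes, 2 rose and 9 fell (2 and 10 under both other scalings): beside Nppa and Nppb, the endothelin receptor gene Ednra (-0.44), Pde5a (-0.32), Npr2 (-0.31), Prkg1 (-0.27), Edn1 (-0.20), Ece1 (-0.19) and Npr3 (-0.17) fell, Corin (0.48) and Gucy1b1 (0.29) rose, and Gucy1a1 (-0.29, and -0.03 without Ang-II replicate 3) did not pass.

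Macrophage markers fell without exception among those tested. All 11 tested were lower, with a median 1.05 below that of all genes, also under both other scalings and without Ang-II replicate 3. Their summed level was 139 to 160 FPKM in si-Foxm1+Ang-II libraries and 334 to 365 FPKM in Ang-II libraries. Most of it was the lysozyme gene Lyz2, with 117, 99.1 and 104 FPKM in si-Foxm1+Ang-II, against 252, 263 and 280 FPKM in Ang-II (log2 fold change -1.30 ± 0.07, limma adjusted p = 7.76e-09). The others were Fcer1g (-1.08), Tyrobp (-1.03), C1qc (-1.03), Adgre1 (-0.98), Itgam (-0.96), Laptm5 (-0.95), C1qb (-0.83), C1qa (-0.77), Cd68 (-0.77) and Csf1r (-0.48). The leukocyte gene Ptprc and the markers Cd14, Mrc1 and Cd79a were below the filter.

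Most endothelial markers rose and most pericyte markers fell. Of 9 endothelial markers, 6 rose and 2 fell, with a summed level of 194 to 207 FPKM in si-Foxm1+Ang-II and 166 to 169 FPKM in Ang-II: Esam (log2 fold change 0.48), Tie1 (0.47), Cdh5 (0.43), Egfl7 (0.32), Eng (0.30) and Pecam1 (0.28) rose, Flt1 (-0.23) and Tek (-0.20) fell, and Emcn (0.03, but -0.07 and -0.06 under the other scalings) did not pass. In OE-NC libraries Eng had 112, 110 and 112 FPKM and the other tested endothelial markers 20.3 FPKM or less. Such a sum there follows Eng most. Of 9 pericyte and smooth muscle markers, 0 rose and 6 fell, at 386 to 397 FPKM in si-Foxm1+Ang-II and 421 to 465 FPKM in Ang-II: Notch3 (-0.49, and -0.32 without Ang-II replicate 3), Mcam (-0.39), Pdgfrb (-0.24), Cspg4 (-0.19, and -0.29 without that library), Myh11 (-0.18) and Abcc9 (-0.14). Of 10 epicardial and mesothelial markers, 1 rose and 5 fell, at 98.1 to 105 FPKM in si-Foxm1+Ang-II and 102 to 108 FPKM in Ang-II: Aldh1a2 (-0.44), Krt19 (-0.39), Gpm6a (-0.34), Upk3b (-0.24) and Tbx18 (-0.14) fell, while Krt18 (0.14) rose but did not pass under median-ratio scaling, quantile normalization or without Ang-II replicate 3. Of the mast cell markers, Mcpt4 rose and so did Kit (0.45), but the tryptase gene Tpsb2, Ms4a2 and Hdc were listed at 0, and Cpa3 and Cma1 were below the filter. The calls of Tek, Myh11, Abcc9, Upk3b and Npr3 were lost without Ang-II replicate 3, and that of Egfl7 under both other scalings. Of the neural markers, S100b fell (-0.24) but did not pass without Ang-II replicate 3, and Tubb3 (0.10) did not pass.

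Fibroblast markers had no common direction. Of 12 tested, 3 rose and 3 fell, but 4 rose and 0 fell without Ang-II replicate 3, and their summed level was 763 to 811 FPKM in si-Foxm1+Ang-II libraries and 798 to 994 FPKM in Ang-II libraries. Pdgfra had 5.19, 4.26 and 4.90 FPKM in si-Foxm1+Ang-II, against 3.15, 2.83 and 4.60 FPKM in Ang-II (log2 fold change 0.37, and 0.54 without Ang-II replicate 3), with Ang-II replicate 3 inside the range of the siRNA libraries. Lum, lumican, had 17.4, 15.2 and 16.8 FPKM in si-Foxm1+Ang-II and 14.4, 13.3 and 29.2 FPKM in Ang-II (-0.11, not called, and 0.24 without Ang-II replicate 3, where it passed). Ang-II replicate 3 had about the level of the unstimulated groups in this gene, at 28.2 to 31.7 FPKM in si-Foxm1 and 24.9 to 25.7 FPKM in si-NC. Meox1 (0.48, and 0.26 without Ang-II replicate 3) and Cd34 (0.27, and 0.43 without it) rose, though Cd34 did not pass under either other scaling. Tcf21 (-0.21), Gsn (-0.19) and S100a4 (-0.18) were called lower but did not pass without that library, and Ddr2 (-0.11), Dcn (-0.11), Thy1 (-0.01), Col15a1 (0.02) and Dpt (0.15) did not pass.

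Most of the siRNA response was also seen without angiotensin. In si-Foxm1 against si-NC, which shares no library with the comparison above, 7267 genes (65.8%) were called, 5361 higher (48.5%) and 1906 lower (17.2%). Of the 6800 genes called under angiotensin, 5865 were called in the same direction without it, which is 86.2% of the calls under angiotensin and 80.7% of those without it. Of the 101 genes at 2-fold or more, 99 were called in the same direction, 47 of 48 higher and 52 of 53 lower. Across all 11052 genes, Pearson's r between the 2 sets of log2 fold changes was 0.91, a description across genes, which are not independent replicates and share the siRNA and the annotation. Median log2 fold changes of the 48 genes were 1.31 with and 1.24 without angiotensin, and those of the 53 were -1.29 with and -1.14 without it; the first value of each pair is from the comparison that chose the genes.

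**Figure D4:**
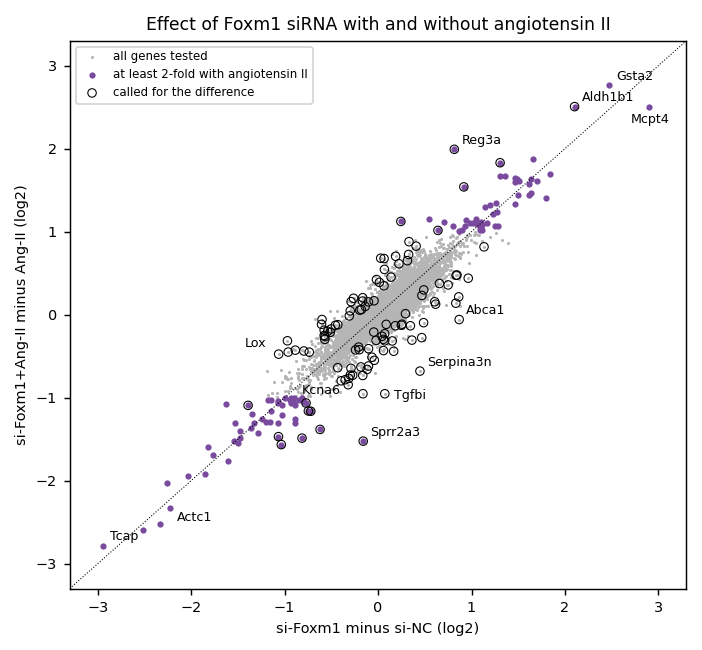
Log2 fold change of Foxm1 siRNA with angiotensin (si-Foxm1+Ang-II over Ang-II, vertical axis) against that without angiotensin (si-Foxm1 over si-NC, horizontal axis) for 11052 genes, with the 101 genes at 2-fold or more under angiotensin filled and genes called for the difference ringed. Most genes lie near the dotted line of equal effects, and Serpina3n, Tgfbi, Reg3a and Sprr2a3 are among those away from it.

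A test of the siRNA effect under angiotensin minus that in unstimulated cells passed for 108 genes (0.977%), 48 with a higher log2 fold change under angiotensin (0.434%) and 60 with a lower one (0.543%); 104 of the 108 also passed without Ang-II replicate 3. The count rests on single libraries: it was 40 without si-Foxm1+Ang-II replicate 2, 45 without si-Foxm1 replicate 1 and 49 without si-NC replicate 1, and 203 without Ang-II replicate 3. Serpina3n, an acute-phase protease inhibitor gene, moved in opposite directions. It had 27.3, 25.1 and 30.7 FPKM in si-Foxm1+Ang-II libraries, against 43.6, 40.9 and 50.5 FPKM in Ang-II libraries (log2 fold change -0.68), and 43.1, 41.4 and 40.1 FPKM in si-Foxm1, against 31.3, 27.7 and 31.7 FPKM in si-NC (0.45; difference -1.13 ± 0.11, limma adjusted p = 0.000389). Tgfbi fell only under angiotensin by this test: without it the gene had 5.75, 5.54 and 5.90 FPKM in si-Foxm1 and 5.35, 5.93 and 4.96 FPKM in si-NC (0.07; difference -1.02 ± 0.10, limma adjusted p = 0.000389). Lox fell less with angiotensin than without, where it had 225, 219 and 231 FPKM in si-Foxm1, against 421, 465 and 433 FPKM in si-NC (-0.96; difference 0.51 ± 0.08, limma adjusted p = 0.0093). The mitotic genes Ccnb1, Aurka, Kif20a, Ube2c and Cks2 rose more with angiotensin. Aurka, a spindle kinase gene, had 6.32, 6.28 and 5.49 FPKM in si-Foxm1+Ang-II, against 3.20, 3.15 and 3.40 FPKM in Ang-II (0.72), and 9.23, 9.67 and 9.81 FPKM in si-Foxm1, against 7.59, 7.09 and 7.62 FPKM in si-NC (0.33; difference 0.40 ± 0.07, limma adjusted p = 0.0204). Of the mitotic list as a whole, 21 of 34 genes rose without angiotensin and 1 fell (background 48.5% and 17.2%). The list median there was 0.14 above that of all genes.

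Krt18, a simple-epithelium keratin gene, had 47.3, 44.5 and 42.9 FPKM in si-Foxm1+Ang-II and 43.5, 41.2 and 37.5 FPKM in Ang-II (log2 fold change 0.14), but 41.4, 44.6 and 41.3 FPKM in si-Foxm1, against 23.3, 23.8 and 23.0 FPKM in si-NC (0.83; difference -0.69 ± 0.07, limma adjusted p = 0.000564). Among these 4 groups si-NC was the lowest in this gene. Abca1, a cholesterol exporter gene, had 2.35, 1.88 and 2.26 FPKM in si-Foxm1+Ang-II and 2.19, 2.13 and 2.56 FPKM in Ang-II, which overlap (-0.06, not called), but 8.93, 10.2 and 6.57 FPKM in si-Foxm1, against 3.70, 4.28 and 4.59 FPKM in si-NC (0.87; difference -0.93). Scel, sciellin, fell less with angiotensin (-0.32) than without (-0.97). Reg3a rose more with angiotensin (1.99) than without (0.82) on the log2(FPKM + 1) scale. It had 4.14, 4.18 and 4.17 FPKM in si-Foxm1+Ang-II, against 0.253, 0.197 and 0.460 FPKM in Ang-II. Its counts were 67, 65 and 63 in si-Foxm1+Ang-II and 4, 3 and 7 in Ang-II. Without angiotensin they were 14, 16 and 11 in si-Foxm1 and 1, 2 and 0 in si-NC. At such low levels the added 1 shrinks the change, so a difference in fold is not shown.

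**Figure D5:**
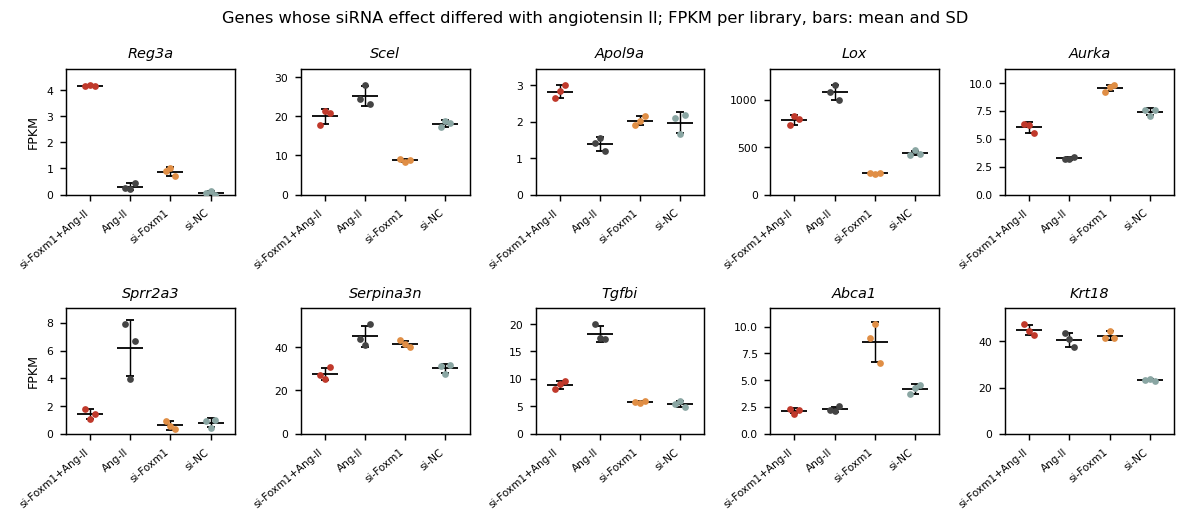
FPKM per library in si-Foxm1+Ang-II, Ang-II, si-Foxm1 and si-NC, left to right, with bars for mean and SD, for 10 genes whose siRNA effect differed with and without angiotensin. Serpina3n is lower with the siRNA under angiotensin and higher with it in unstimulated cells, and Krt18 is lowest in si-NC among these 4 groups.

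Foxm1 overexpression gave an independent set of libraries for the same genes, fitted on its own 6 libraries and added after the other results. Foxm1 had 399, 480 and 487 FPKM in OE-Foxm1 and 15.7, 17.1 and 17.1 FPKM in OE-NC (log2 fold change 4.69). Of all genes tested, 55.1% were called, 3033 (27.4%) higher and 3056 (27.7%) lower in OE-Foxm1, and Pearson's r with the siRNA effect under angiotensin was -0.191 across 11052 genes. Of the 48 genes that rose 2-fold or more with the siRNA, 10 were higher and 16 lower in OE-Foxm1 (20.8% and 33.3%), and of the 53 that fell, 21 were higher and 13 lower (39.6% and 24.5%). The S phase list, 38 of 39 higher with the siRNA, had 2 higher and 32 lower in OE-Foxm1 (82.1% lower), with Mcm3 at 26.5, 26.6 and 28.9 FPKM in OE-Foxm1 and 42.2, 38.4 and 39.5 FPKM in OE-NC. The mitotic list had 3 higher and 14 lower of 34 (41.2% lower). Cholesterol genes, 19 of 26 lower with the siRNA, had 22 higher and 1 lower in OE-Foxm1. Heat shock genes had 1 higher and 18 lower of 20, and Gsta4 had 13.6, 13.8 and 12.4 FPKM in OE-Foxm1 and 33.2, 31.4 and 30.1 FPKM in OE-NC (-1.19). Lox was higher in OE-Foxm1 (0.69). Cardiomyocyte markers, 20 of 25 lower with the siRNA, had 13 higher and 4 lower in OE-Foxm1. Macrophage markers, all 11 lower with the siRNA, had 7 higher and 3 lower. Collagen genes had 8 higher and 3 lower of 19, and collagen processing genes 10 and 3 of 20. Elastic fibre, glycoprotein and proteoglycan genes had 14 higher and 4 lower of 28. Proteasome genes, 23 of 31 higher with the siRNA, had 1 higher and 20 lower. Some lists leaned the same way in both. Myofibroblast contractile genes, 5 higher and 12 lower of 28 with the siRNA, had 3 higher and 9 lower in OE-Foxm1. Ribosomal protein genes (16 higher and 0 lower of 36 with the siRNA) had 14 higher and 1 lower. Chemokine, cytokine and NF-kB genes (6 and 1 of 18) had 13 higher and 1 lower. The siRNA counts of these last lists depended on the scaling. The largest siRNA effects went both ways. Gsta2 (-1.41), Gsta1 (-1.48), Aqp8 (-0.77) and Gm36028 (-0.64), higher with the siRNA, were lower in OE-Foxm1, and Tcap (0.31), Nppa (0.26) and Casq2 (0.12), lower with the siRNA, were higher in OE-Foxm1. Mcpt4 (0.77), Slc52a3 (0.48), Rasl10a (0.44) and Reg3a (0.37) were higher in OE-Foxm1, as with the siRNA. Myh7 (-0.79), Casq1 (-0.54), Chrm2 (-0.34), Tmtc1 (-0.22), Nmrk2 (-0.18) and Aqp4 (-0.18) were lower in OE-Foxm1, also as with the siRNA. Actc1 had 1490, 1410 and 1450 FPKM in OE-Foxm1 and 1410, 1340 and 1350 FPKM in OE-NC and did not pass (0.08), while Aldh1b1 was slightly higher in OE-Foxm1 (0.21), as it was with the siRNA.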

How the data were processed

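The deposited values are FPKM, which the authors made with fastp, HISAT2 and HTSeq on mm39, per the submitters' processing notes; the sources used here state no versions, annotation or strand setting for the counting, so antisense and overlapping genes may share reads. Per the labels' protocols, RNA came from mirVana kits and stranded TruSeq mRNA libraries. FPKM values of all 17960 genes above 0 were whole counts (within 0.02) divided by length and library total, which gave the fragments per library; these cover counting error only.

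From the deposited FPKM, log2(FPKM + 1) was fitted with limma 3.58.1 in R 4.3.3 (1 mean per group, 12 libraries of the knockdown arm, mean-variance trend), with Benjamini-Hochberg adjustment over 11052 genes and calls at 0.05. The pseudocount understates changes of low genes. On simulated counts, with 50 genes changed at each fold, the fit recovered 78% of genes changed 1.25-fold and 100% at 1.5-fold or more. The simulation gave every gene the same relative spread and set no library apart, so these shares may not hold for these data. Genes were named by rule: the 15 highest and 15 lowest, the 10 largest gains and losses in FPKM, up to 5 per list with 1 in the opposite direction, all members of lists of 12 or fewer, and the 5 highest and 5 lowest differences between siRNA effects. The members and lists were chosen with earlier results of these data known, and the overexpression fit was added. The labels do not say that replicate numbers pair the libraries, and the main fit did not pair them. With 3 libraries per group, the correlations of same-numbered libraries given below cannot decide this. Alternatives were other scalings, filters, pseudocounts, libraries in the fit, a replicate block, voom on recovered counts, and leaving out each library. A few genes that the rule names are not reported here.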

Additional observations from a re-analysis of the deposited data

Results flagged for a closer look

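The siRNA effect differed with and without angiotensin, by the limma test of the difference itself, for 25 of the genes named. As the labels name no control siRNA for the Ang-II cells, a response to control siRNA cannot be told apart from these differences. Values are log2 fold changes of FPKM + 1 under angiotensin (si-Foxm1+Ang-II over Ang-II) minus those without it (si-Foxm1 over si-NC). Those with a higher log2 fold change under angiotensin were Reg3a (1.18), Reg3b (0.88), Scel (0.66), Apol9a (0.65), Tcp11x2 (0.62), Slc52a3 (0.52), Lox (0.51), Aldh1b1 (0.40), Aurka (0.40), Cks2 (0.34), Kit (0.31) and Fhl2 (0.28). Those with a lower one were Sprr2a3 (-1.36), Serpina3n (-1.13), Tgfbi (-1.02), Abca1 (-0.93), Kcna6 (-0.79), Krt18 (-0.69), Tmtc1 (-0.67), Mgll (-0.53), Bambi (-0.53), Dkk3 (-0.49), Vcan (-0.36), Lpl (-0.21) and Ctnnb1 (-0.19).

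Kcna6, a potassium channel gene, had 0.466, 0.589 and 0.633 FPKM in si-Foxm1+Ang-II, against 2.31, 2.17 and 1.63 FPKM in Ang-II, and was under 0.4 FPKM in every si-Foxm1 and si-NC library. Dkk3, a secreted Wnt modulator gene, had 24.8, 25.2 and 25.6 FPKM in si-Foxm1+Ang-II, against 32.4, 34.0 and 37.0 FPKM in Ang-II, while it had 48.6, 48.7 and 48.3 FPKM in si-Foxm1 and 47.0, 46.6 and 46.1 FPKM in si-NC. Mgll fell in both settings, by 1.57 on the log2 scale with angiotensin and by 1.04 without it. Bambi rose in both, by 0.44 with angiotensin and 0.96 without it. Reg3a, Reg3b, Apol9a, Tcp11x2 and Sprr2a3 belong to families of similar genes, some of them near-identical copies, and their counts are uncertain. Reg3b had 24, 21 and 34 counts in si-Foxm1+Ang-II and 5, 6 and 2 in Ang-II. Without angiotensin it had 4, 3 and 2 counts in si-Foxm1 and 0, 1 and 0 in si-NC. For genes at such low levels without angiotensin, the added 1 shrinks the change there, so a difference in fold is not shown.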

How the results depend on the processing

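The number of genes called was 6096 to 6587 when each of the 6 compared libraries was left out, 6450 with those 6 libraries alone in the fit and 6863 with all 18. Genes at 2-fold or more numbered 99 to 105 without single libraries and 112 under median-ratio scaling, but 204 with a pseudocount of 0.1 and 218 with voom on recovered counts. Genes called for the difference numbered 173 with 18 libraries in the fit, 56 with no filter and 232 with voom. Leaving out single libraries gave 40 to 203: 203 without Ang-II replicate 3, 45 and 65 without si-Foxm1 replicates 1 and 2, 40 and 58 without si-Foxm1+Ang-II replicates 2 and 3, and 49, 62 and 61 without si-NC replicates 1, 2 and 3. Foxm1 stayed lower and called under every alternative run, from -0.25 to -0.47 on the log2 scale. The replicate block gave 6884 genes called, 101 at 2-fold or more, 138 for the difference and a Foxm1 log2 fold change of -0.38; deviations of same-numbered libraries correlated at -0.0105, 0.172 and 0.00224, and only replicate 2 correlated best with its own number. Direction changed in 21 gene values, and the cause was not tested. Among them, Lum was called higher without Ang-II replicate 3 (0.24, limma adjusted p = 0.00349). Under quantile normalization the values that changed direction were Mapk12 (-0.01), Col1a1 (0.16), Fn1 (0.14), Col15a1 (-0.05) and Emcn (-0.06). Under median-ratio scaling they were Postn (-0.02), Col15a1 (-0.05) and Emcn (-0.07). Over fits without single libraries, values that crossed 0 spanned -0.08 to 0.05 for Thy1, -0.19 to 0.03 for Dcn, -0.31 to 0.24 for Lum, -0.26 to 0.00 for Col3a1, -0.10 to 0.01 for Abca1, -0.03 to 0.05 for Col15a1, -0.02 to 0.11 for Emcn, -0.10 to 0.04 for Upk1b and -0.03 to 0.01 for Msln. Of 278 named gene results, 234 kept direction and call under every alternative run, as did 4 of 10 named differences. Of these 10 differences, 5 lost the call with a pseudocount of 0.1 and 5 with voom on recovered counts. Of 78 list counts, 42 stayed within 1.5 times their value throughout.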
